A study of Mus musculus with 14 samples.

Results

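Transcripts of 10 genes that mark fat cells (Adipoq, Lep, Cfd, Retn, Plin1, Cidec, Lipe, Fabp4, Pparg and Cebpa) were followed in a limb muscle of mice that lack the imprinting center of the Prader-Willi domain (PWS-IC del), with whole brain as a background tissue. Members were all probe sets that the array annotation assigns to exactly these symbols. This gave 12 probe sets for 8 of the 10 genes, of 45037 probe sets and 18193 genes in all: 4 for Fabp4, 2 for Lipe and 1 for each of the other 6. Cfd and Plin1 had none and are named only.

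The study hybridised RNA of the vastus lateralis, a thigh muscle, and of whole brain to 14 Affymetrix Mouse Genome 430 2.0 arrays. The groups were PWS-IC del muscle (3 arrays), wild-type muscle (4 arrays), PWS-IC del brain (3 arrays) and wild-type brain (4 arrays). The wild-type mice were littermates of the mutants and matched to them in age, the age itself is not given in the sources used here, and all mice came from a cross of the FVB and B6 strains. The labels name no treatment and no tissue-specific driver of the deletion. The titles call the arrays biological replicas, and p-values measure the spread between these samples.

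White fat cells store triglyceride in a droplet coated by proteins such as perilipin and release it as fatty acids by lipolysis. They also secrete hormones, the adipokines, of which leptin reports fat stores to the brain and adiponectin acts on muscle and liver. The transcription factors PPAR gamma and C/EBP alpha switch on most of these genes as fat cells form. A piece of skeletal muscle can hold fat cells between its fibres and bundles, and in Prader-Willi syndrome body fat is raised and lean mass is low.

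Values are log2(intensity + 16), where intensity is the deposited linear brightness of a probe set, so the scale has a floor of 4. Levels of different genes cannot be set against each other on this scale, since each probe set has its own brightness. In a bulk sample, fewer fat cells and less RNA per fat cell cannot be told apart. Across muscle arrays the median intensity lay between 88.8 and 96.4, and pairs of muscle arrays correlated at 0.981 to 0.991. In brain the median intensity was 142.1 to 170.1 and the correlations were 0.952 to 0.992. Ndn, a paternally expressed gene that the imprinting center controls, was at 7.47 to 7.73 in PWS-IC del muscle and at 8.69 to 8.99 in wild-type muscle. In brain Ndn was at 7.70 to 8.71 in PWS-IC del mice and at 12.04 to 12.79 in wild-type mice, so the groups did not overlap in either tissue. The 10 muscle fibre markers had summed intensities in muscle of 120936 to 132768 in PWS-IC del muscle and 129296 to 142923 in wild-type muscle. Among them Myh7, a slow fibre myosin, was at 8.82 in wild-type muscle 2, within its brain range of 8.28 to 9.2.

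Single libraries had raised levels of some RNAs typical of the other tissue. Wild-type muscle 2 had Snap25, a neuronal synaptic protein, at 9.23, against 5.14, 5.75 and 6.96 in PWS-IC del muscle and 4.0, 5.18 and 7.79 in the other wild-type muscle arrays. Of the other neuron and glia markers, Syt1 (9.01), Gad1 (8.09), Slc17a7 (6.31) and Mbp (10.48) were also highest in that array. Camk2a (10.7), Gfap (7.15) and Aldh1l1 (8.76) were not, so the markers did not all go the same way. The summed intensity of 8 measured neuron and glia markers was 3107 to 3349 in PWS-IC del muscle and 2854 to 5007 in wild-type muscle. In brain, Ckm, the creatine kinase of muscle, was at 6.38 to 6.63 in PWS-IC del mice and at 10.38, 7.04, 9.61 and 7.25 in wild-type mice, highest in wild-type brain 1 and 3. Adipoq in those 2 arrays was 4.89 and 4.86, near the low end of the 4.87 to 5.32 seen in PWS-IC del brain. Wild-type muscle 2 was also the wild-type array with the most Adipoq, and results that change without it are given below.

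The promoters of the genes that the results turn on are shown first: Adipoq, against which the others were set, Lep and Retn, and Pparg. By the brightest probe set of each gene, the level relative to Adipoq differed most between genotypes for Lep and Retn. RefSeq (GRCm38.p6) held 13 promoter entries for 9 of the 10 genes, and the last 250 bases before each start were searched on both strands. Capitals mark TTGCNNAA or its reverse complement TTNNGCAA, a pattern bound by C/EBP proteins. The sequences run 5′ to 3′ on the strand of the gene.
Adipoq (chr16:23146286-23146535, plus strand): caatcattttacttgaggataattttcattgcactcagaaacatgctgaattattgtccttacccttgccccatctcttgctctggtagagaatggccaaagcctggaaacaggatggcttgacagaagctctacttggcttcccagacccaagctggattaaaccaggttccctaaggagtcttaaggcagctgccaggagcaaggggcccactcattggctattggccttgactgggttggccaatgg
Lep (chr6:29059971-29060220, plus strand): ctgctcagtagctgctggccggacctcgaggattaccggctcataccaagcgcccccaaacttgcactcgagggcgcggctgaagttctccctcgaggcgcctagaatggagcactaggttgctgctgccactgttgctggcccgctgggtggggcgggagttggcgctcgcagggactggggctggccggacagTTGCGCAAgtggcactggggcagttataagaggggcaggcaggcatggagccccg
Retn (chr8:3655520-3655769, plus strand): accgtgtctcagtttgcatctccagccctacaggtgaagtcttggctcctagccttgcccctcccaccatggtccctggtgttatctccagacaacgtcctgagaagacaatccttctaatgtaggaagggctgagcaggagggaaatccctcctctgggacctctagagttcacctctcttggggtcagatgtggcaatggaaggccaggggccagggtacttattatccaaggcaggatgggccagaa
Pparg, the start farthest downstream (chr6:115421816-115422065, plus strand): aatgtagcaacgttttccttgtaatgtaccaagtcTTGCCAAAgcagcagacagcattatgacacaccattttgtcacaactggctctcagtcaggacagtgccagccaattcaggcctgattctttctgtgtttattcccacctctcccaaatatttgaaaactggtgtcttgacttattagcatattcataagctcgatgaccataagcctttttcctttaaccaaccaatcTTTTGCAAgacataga
The pattern stood in the searched window of any start for 4 of the 9 genes (Cidec, Lep, Plin1 and Pparg). It stood in 9.56% of all 32851 promoters in the table. For this pattern and those below, a gene counts if any of its starts has a match, whereas each start is its own promoter in the shares. The count of genes and the share of promoters are therefore unlike measures, and Cidec and Pparg also have starts without the pattern. In Lep it was TTGCGCAA, a palindrome whose first base lies 55 bases before the start. The AGGTCA core read by PPAR gamma with its partner RXR was present for Pparg alone, at other starts than the printed window, and in 14% of all promoters. TATAAA was present for Cebpa and Pparg and in 12.4% of all promoters. A match is a string of letters only, and its absence says nothing about a factor.

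In muscle the fat cell genes varied between mice of the same genotype far more than most genes did. The SD within genotype was 0.98 for Adipoq, 0.96 for Lep, 1.62 for Retn, 1.2 for Cidec, 0.97 for Lipe, 0.56 for Fabp4, 1.05 for Pparg and 1.1 for Cebpa, against a median of 0.14 over the 13644 genes tested. Retn had the 9th largest of these SDs (0.066% from the top) and Fabp4 the 234th (1.72%). Over the 7 muscle arrays Retn spanned 4.83 log2 units and Fabp4 1.32, where the median gene spanned 0.42. With this spread, a genotype difference in the mean had to be large to pass a test.

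Adipoq encodes adiponectin, a hormone made almost only by fat cells. Its level was 12.58, 13.1 and 10.89 in PWS-IC del muscle, against 10.85, 12.78, 11.59 and 11.17 in wild-type muscle. Both genotypes held a rich and a poor array, and the groups overlapped over nearly their whole range. The mean was 12.19 ± 1.16 in PWS-IC del muscle (SD, n = 3) and 11.6 ± 0.85 in wild-type muscle (SD, n = 4), a difference of 0.59 ± 0.58 (SE) with a limma adjusted p of 0.71. Brain lay far below, at 4.87 to 5.32 in PWS-IC del mice and 4.86 to 5.25 in wild-type mice.

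Lep encodes leptin, the hormone by which fat stores restrain feeding. It was at 7.24, 8.71 and 6.14 in PWS-IC del muscle, against 8.12, 9.31, 8.05 and 7.82 in wild-type muscle. PWS-IC del 1 and 3 lay below every wild-type array, and PWS-IC del 2 lay above 3 of the 4. The mean was 7.36 ± 1.29 in PWS-IC del muscle and 8.33 ± 0.67 in wild-type muscle (SD, n = 3 and 4), a difference of -0.96 ± 0.57 (SE, adjusted p = 0.542). Brain gave 6.65 to 7.02 in PWS-IC del mice and 6.75 to 7.14 in wild-type mice. On the values as deposited, Lep in PWS-IC del muscle 3 was thus below every brain array, whereas all 4 wild-type muscle arrays were above every brain array. Median intensity was higher in brain arrays, so this reading across tissues depends on how the arrays are scaled.

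Retn encodes resistin, a secreted protein of mouse fat cells. Its level was 11.27, 12.04 and 9.31 in PWS-IC del muscle, against 7.21, 11.27, 8.76 and 8.08 in wild-type muscle. All 3 PWS-IC del arrays lay above 3 of the 4 wild-type arrays, and wild-type 2 reached the PWS-IC del values. The mean was 10.87 ± 1.41 in PWS-IC del muscle and 8.83 ± 1.74 in wild-type muscle (SD, n = 3 and 4). The difference of 2.04 ± 0.96 (SE) was the largest of the 8 genes and had an unadjusted p of 0.0633 and an adjusted p of 0.446 in limma. Brain was at 7.86 to 8.14 in PWS-IC del mice and 8.05 to 8.56 in wild-type mice. Without scaling between tissues, wild-type muscle 1 fell below the brain level.

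Cidec encodes a droplet protein that lets small lipid droplets pass their fat to larger ones. It was at 9.85, 10.55 and 7.57 in PWS-IC del muscle, against 7.49, 9.43, 8.57 and 7.77 in wild-type muscle. PWS-IC del 1 and 2 were above every wild-type array and PWS-IC del 3 was among the lowest. The difference was 1.01 ± 0.71 (SE, adjusted p = 0.601). Brain arrays were at 5.57 to 5.97 in PWS-IC del mice and 5.43 to 6.4 in wild-type mice, all below every muscle array.

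Lipe encodes hormone-sensitive lipase, which cuts diacylglycerol during lipolysis. The brighter probe set, 1422820_at, was at 9.44, 10.17 and 7.8 in PWS-IC del muscle, against 8.17, 9.84, 8.9 and 8.3 in wild-type muscle. The groups overlapped and differed by 0.34 ± 0.57 (SE, adjusted p = 0.848). The other probe set, 1432180_at, stayed near the floor of the scale, at 4.97 to 5.33 in PWS-IC del muscle and 5.06 to 5.5 in wild-type muscle, with overlapping ranges. In brain the brighter probe set gave 7.45 to 7.55 in PWS-IC del mice and 7.53 to 7.76 in wild-type mice.

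Fabp4 encodes the fatty acid carrier of fat cells, which capillary endothelium and macrophages also make. The brightest of its 4 probe sets, 1417023_a_at, was at 13.55, 13.84 and 12.53 in PWS-IC del muscle, against 12.83, 13.79, 13.22 and 12.82 in wild-type muscle. The groups overlapped and the difference was 0.14 ± 0.34 (SE, adjusted p = 0.898). Fabp4 spread least of the 8 genes, and PWS-IC del 3 was the lowest array, as it was for Lep, Lipe and Pparg.

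The 4 Fabp4 probe sets disagreed in the sign of the genotype difference. The second bright one, 1451263_a_at, differed by 0.09 ± 0.33 (SE), whereas the dimmer 1424155_at differed by -0.38 ± 0.52 and 1425809_at by -0.90 ± 0.43 (SE, adjusted p = 0.518 over all probe sets). For 1425809_at the values were 7.35, 8.48 and 6.46 in PWS-IC del muscle, against 8.38, 8.94, 8.25 and 7.75 in wild-type muscle. PWS-IC del 1 and 3 lay below all wild-type arrays there, the same order of genotypes as for Lep. Which transcript each probe set reads was not tested.

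Pparg encodes PPAR gamma, the nuclear receptor that fat cell formation requires. It was at 7.99, 9.01 and 6.48 in PWS-IC del muscle, against 6.65, 8.53, 6.93 and 6.88 in wild-type muscle. Wild-type 2 stood apart from the other wild-type arrays, and the difference between genotypes was 0.58 ± 0.62 (SE, adjusted p = 0.737). Cebpa, which encodes C/EBP alpha, was at 9.74, 10.86 and 8.21 in PWS-IC del muscle, against 8.05, 10.08, 8.92 and 8.21 in wild-type muscle. It differed by 0.79 ± 0.65 (SE, adjusted p = 0.654), and wild-type 1 was the lowest array.

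**Figure D1:**
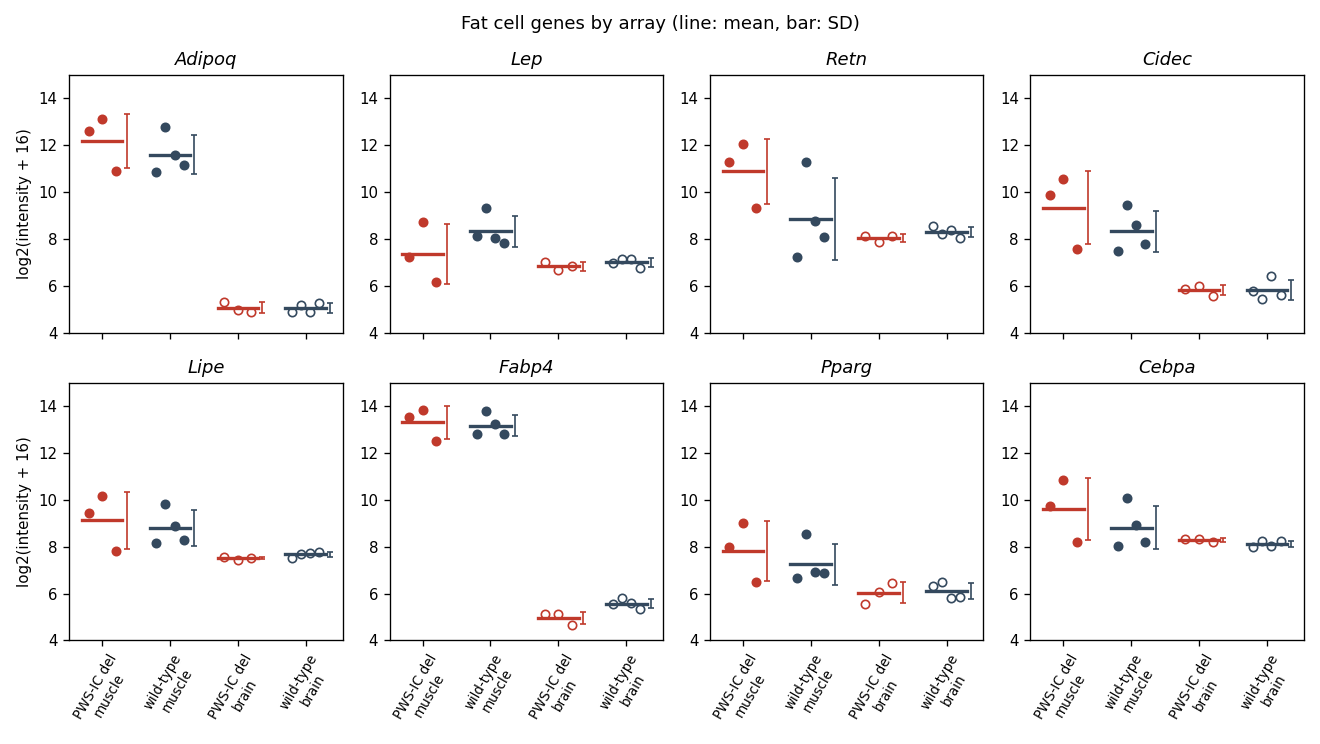
Level of each gene in every array as log2(intensity + 16), by genotype and tissue, from the brightest probe set of the gene. Filled points are muscle arrays and open points brain arrays, lines are group means and bars are SDs (n = 3 for PWS-IC del, n = 4 for wild-type). Over the 7 muscle arrays the points span 1.32 log2 units for Fabp4 and 4.83 for Retn. In Adipoq, Fabp4, Cidec and, by a small margin, Lipe, all muscle points lie above all brain points.

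In the muscle comparison 0 of the 8 genes passed the adjusted threshold of 0.05, where 0.117% of all 13644 genes did. Of these 8, 0 had an unadjusted p under 0.05 either, against 11.9% of all genes. The difference was positive for 7 of the 8 and negative for Lep, with a median of 0.59 over the 8 and 0.02 over all genes tested. The sizes, and the signs for Lipe, Fabp4 and Pparg, depended on single arrays. With arrays left out in turn, the difference was 0.14 to 1.24 for Adipoq, 1.46 to 2.85 for Retn, 0.39 to 1.88 for Cidec and 0.16 to 1.49 for Cebpa. Without PWS-IC del 2 it was negative for Lipe (-0.18), Fabp4 (-0.13) and Pparg (-0.01), as it was for Lep (-1.64). Since the 7 genes followed the same arrays, as described next, their common sign is not 7 separate observations. Among probe sets 0 of 12 passed, against 0.0644% of all 45037, and 0 had an unadjusted p under 0.05, against 10.3%. The 95% confidence intervals were wide, from -0.74 to 1.92 for Adipoq, from -2.27 to 0.34 for Lep and from -0.14 to 4.23 for Retn, so differences of several fold could not be told from 0. With weights for array quality, 5 genes passed (Adipoq, Retn, Cidec, Pparg and Cebpa), as did 1861 genes in all. That fit gave PWS-IC del 2, the array richest in Adipoq, a weight of 5.88, against 0.541 and 0.337 for PWS-IC del 1 and 3, so it rests mainly on 1 PWS-IC del array.

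Across the 7 muscle arrays the levels of the fat cell genes varied together, with Lep as the exception. Against Adipoq, Pearson's r was 0.98 for Cidec, Lipe, Pparg and Cebpa, 0.97 for Fabp4, 0.93 for Retn and 0.57 for Lep. Spearman's rho was 0.96 for Cidec, Lipe, Pparg and Cebpa, 0.89 for Fabp4, 0.86 for Retn and 0.50 for Lep. Thus 6 of 7 genes had r above 0.9, a level reached by 4.53% of the 13643 genes set against Adipoq, and the median r over all of these was 0.21. The points of all genes share the same 7 libraries.

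By the exact permutation test over all 5040 orders, the p of r was 3.97e-04 for Lipe, Pparg and Cebpa and 9.92e-04 for Cidec. It was 0.00159 for Fabp4, 0.00952 for Retn and 0.19 for Lep, also by exact permutation. For rho the exact permutation p was 0.00278 for Cidec, Lipe, Pparg and Cebpa, 0.0123 for Fabp4, 0.0238 for Retn and 0.267 for Lep. After adjustment over all 13643 genes 0 genes passed for r (0.00%), while 15.1% had an unadjusted exact p under 0.05. The adjusted p was 0.0892 for Lipe, Pparg and Cebpa, 0.095 for Cidec, 0.108 for Fabp4, 0.192 for Retn and 0.576 for Lep. The smallest p that 7 arrays can give is 1.98e-04. For rho the adjusted p lay between 0.196 and 0.711.

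The Adipoq values left a gap of 1.00 between 11.59 and 12.58, within a range of 2.25. PWS-IC del 1, PWS-IC del 2 and wild-type 2 lay above it, while PWS-IC del 3 and wild-type 1, 3 and 4 lay below. Neither side holds 6 arrays, and no correlation was computed within a side. Without PWS-IC del 2 and wild-type 2, the arrays farthest from the median, r over the remaining 5 was 1.00 for Cidec, 0.99 for Cebpa, 0.97 for Pparg, 0.95 for Lipe, 0.94 for Fabp4 and 0.84 for Retn. For Lep it was 0.03, so the pooled value of Lep rests on those arrays.

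Among the 28 pairs that the 8 genes form, the 21 without Lep had r between 0.83 and 0.99. The 7 pairs with Lep had r between 0.28, with Retn, and 0.71, with Fabp4. When each value was taken relative to the mean of its own genotype, r of Lep with Adipoq was 0.91. By exact permutation within genotype its unadjusted p was 0.0278 and its adjusted p 0.322. That test has 144 orders and a smallest p of 0.00694, so the adjusted p says little. The r of the other 6 genes was 0.97 to 0.99. Within each genotype the array with the most Adipoq was also the array with the most Lep, and the PWS-IC del values lay lower at a given Adipoq level.

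**Figure D2:**
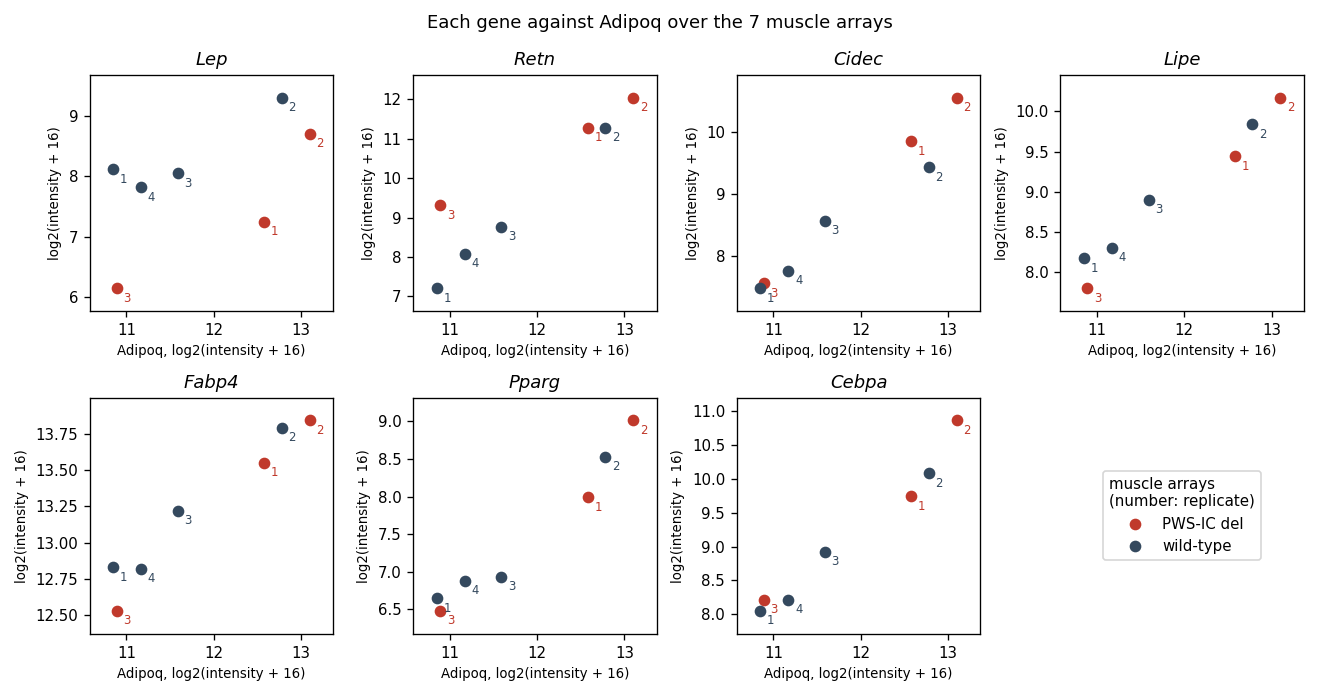
Each gene (vertical axis) against Adipoq (horizontal axis), both as log2(intensity + 16), over the 7 muscle arrays. Numbers are replicates, red points PWS-IC del and dark points wild-type. Cidec, Lipe, Fabp4, Pparg and Cebpa lie along a line that both genotypes share (r 0.97 to 0.98), whereas the 3 PWS-IC del points for Lep lie below the wild-type points at similar Adipoq.

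The level of Lep relative to Adipoq in the same array did not overlap between the genotypes. Lep minus Adipoq was -5.34, -4.39 and -4.75 in PWS-IC del muscle, against -2.73, -3.47, -3.53 and -3.34 in wild-type muscle. Every PWS-IC del array was below every wild-type array, with a mean of -4.83 ± 0.48 in PWS-IC del muscle and -3.27 ± 0.37 in wild-type muscle (SD, n = 3 and 4). Of the 13643 genes set against Adipoq in this way, 11 (0.0806%) lay wholly lower in PWS-IC del muscle. The median gene spanned 0.42 over the muscle arrays and Adipoq 2.25. For most genes the difference therefore followed Adipoq, which overlapped between genotypes. The share is thus low by construction and does not measure how unusual Lep is. The lower Lep relative to Adipoq was noticed after the values were seen. It rests on Lep values near the brain level in PWS-IC del muscle: PWS-IC del 3 (6.14) lay below every brain array and PWS-IC del 1 (7.24) just above the highest one (7.14). The place of these values relative to brain depends on the scaling between tissues. How much of them is probe background was not tested, so the sizes of the differences in PWS-IC del muscle are uncertain.

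Retn minus Adipoq was -1.31, -1.06 and -1.58 in PWS-IC del muscle, against -3.64, -1.51, -2.83 and -3.08 in wild-type muscle. Here PWS-IC del was the higher group, and wild-type 2 overlapped it. For Pparg the same quantity was -4.59, -4.09 and -4.41 in PWS-IC del muscle, against -4.20, -4.25, -4.66 and -4.29 in wild-type muscle, so Pparg stayed level with Adipoq in both genotypes. The groups also overlapped for Cidec, Lipe and Cebpa, and for Fabp4 by its bright probe sets 1417023_a_at and 1451263_a_at. With the dimmer Fabp4 probe sets 1425809_at and 1424155_at they did not. There every PWS-IC del array lay below every wild-type array relative to Adipoq, as for Lep. The share of all probe sets for which this holds was not computed. The caution given for Lep applies here too, so this does not measure how unusual these probe sets are.

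A limma fit with the Adipoq value of each array as a covariate, added after seeing the data, gave the genotype difference at equal Adipoq. Lep differed by -1.50 ± 0.26 (SE) with an unadjusted p of 3.79e-04 and an adjusted p of 0.0566, and so did not pass. Retn differed by 1.10 ± 0.27 (SE, unadjusted p = 0.00346, adjusted p = 0.148). Of the 7 genes 0 passed, against 0.520% of all 13643, and 3 had an unadjusted p under 0.05, against 13.1%. The third was Lipe at -0.24 ± 0.11 (SE, adjusted p = 0.373). The differences of Cidec (0.30), Fabp4 (-0.19), Pparg (-0.04) and Cebpa (0.13) had unadjusted p-values of 0.05 or more.

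The adjusted p of Lep crossed the threshold with the choices made. It was 0.0375 with a pseudocount of 64, 0.0406 with median centring, 0.0494 with Lipe in place of Adipoq and 0.0189 without PWS-IC del 2. It was 0.0606 to 0.227 in the 13 other fits, and the difference was -1.73 to -1.17 over all 17. Retn passed without wild-type 2 (1.57, adjusted p = 0.0346) and fell to 0.30 without PWS-IC del 3 (adjusted p = 0.391). Among Fabp4 probe sets, 1425809_at differed by -1.29 ± 0.26 (SE, adjusted p = 0.198) and 1424155_at by -0.87 ± 0.24 (adjusted p = 0.316), whereas the bright 1417023_a_at and 1451263_a_at differed by -0.19 and -0.24. Of 12 probe sets less the Adipoq one, 0 passed, against 0.0733% of all 45036, and 4 had an unadjusted p under 0.05 (those of Lep and Retn and the dimmer Fabp4 pair), against 9.90%.

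**Figure D3:**
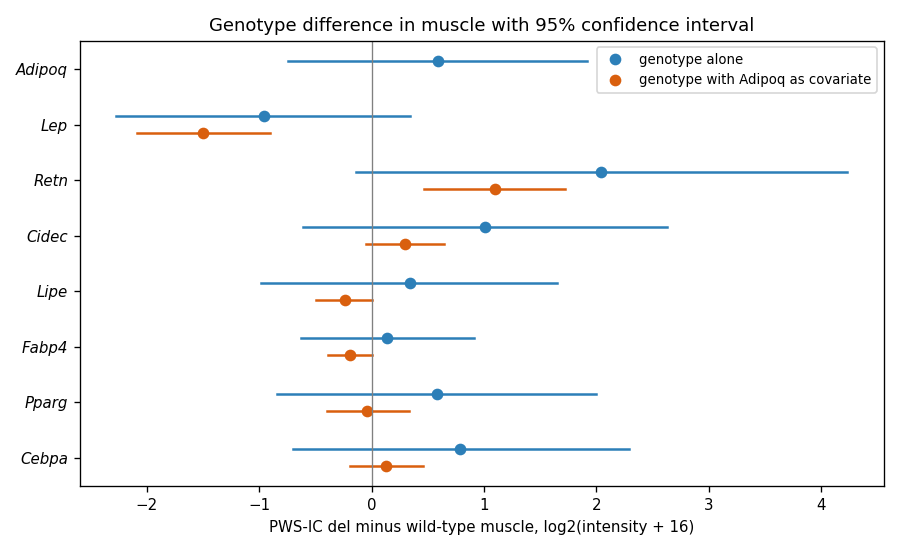
Difference between PWS-IC del and wild-type muscle on the log2(intensity + 16) scale, with 95% confidence intervals of the limma fits, for genotype alone and with Adipoq as a covariate. Intervals of genotype alone all cross 0. With Adipoq in the fit the interval of Lep lies below 0 (-2.09 to -0.90) and that of Retn above 0 (0.47 to 1.72). The interval of Lipe ends just below 0 (-0.49 to -0.00). None of these genes passed after adjustment over all genes.

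Other genes of fat cells, 32 listed by known function, of which 31 were measured, were set against Adipoq in the same way. Their summed intensity was 61840 to 121263 in PWS-IC del muscle and 69497 to 117724 in wild-type muscle. Of the 31, 18 had r above 0.9 with Adipoq, against 4.53% of all genes, and the median was 0.93. The other 13 did not reach it, and the lowest were Acvr1c (-0.13), Mest (0.17), G0s2 (0.29) and Lpl (0.44). Those above 0.9 included Rbp4, the retinol carrier that fat also secretes, Adig and Trarg1 at 0.99, and Agpat2, an enzyme of triglyceride synthesis, at 0.98. For genotype 0 of the 31 passed in limma and 1 had an unadjusted p under 0.05 (11.9% of all genes had), while 23 differences were positive and the median was 0.26. Apoc1, an apolipoprotein, had the smallest p of this list, with 1.78 ± 0.75 (SE, adjusted p = 0.397). G0s2, an inhibitor of the lipase that starts lipolysis, followed at -0.51 ± 0.23 (adjusted p = 0.433), then Me1, an enzyme that makes NADPH for fat synthesis, at 0.28 ± 0.13 (adjusted p = 0.452). Lpl, the lipase that frees fatty acids from circulating lipoproteins and that muscle fibres also make, was at -0.24 ± 0.14 (adjusted p = 0.528).

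Of 11 regulators of fat cell formation 0 passed for genotype and 3 had an unadjusted p under 0.05, against 0.117% and 11.9% of all genes, while 7 differences were positive and the median was 0.05. Srebf1, a regulator of lipid synthesis, differed by 0.50 ± 0.15 (SE, unadjusted p = 0.00957, adjusted p = 0.284). Ppara, the PPAR of fatty acid oxidation, differed by -0.37 ± 0.12 (adjusted p = 0.29) and Klf15 by 0.29 ± 0.11 (adjusted p = 0.339). The receptors through which adipokines act were also without a call (0 of 5, and 0 at an unadjusted p under 0.05, median 0.05). Adipor1, the adiponectin receptor of muscle, differed by 0.12 ± 0.08 (adjusted p = 0.589) and Lepr, the leptin receptor, by 0.07 ± 0.11 (adjusted p = 0.844).

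Outside all lists, the 8 genes nearest to Adipoq over the 7 muscle arrays were Acp5, Atl3 and Cox6a1 (r = 0.996), Il17rc and Faim (0.995), Hsd17b12 and Klhl2 (0.994) and Csad (0.993). Hsd17b12 takes part in fatty acid elongation, Cox6a1 is the form of a cytochrome oxidase subunit found outside muscle fibres, and Acp5 is an acid phosphatase of osteoclasts and macrophages. Acp5 was at 8.69, 9.7 and 6.57 in PWS-IC del muscle, against 6.37, 8.98, 7.47 and 6.93 in wild-type muscle, and so ranked the arrays exactly as Adipoq did. The adjusted exact permutation p of r was 0.0892 for 7 of these genes and 0.0895 for Csad. At the other end were Cdiptos (-0.991), Fam219aos (-0.977), Ccdc184 (-0.972) and Chmp4b (-0.972). Their levels moved little, with a range of 0.42 for Fam219aos and 0.08 for Chmp4b, and the names Cdiptos and Fam219aos denote antisense transcripts, whose probes may lie in overlapping genes. In all, r below -0.9 was found for 0.315% of genes.

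Markers of other cells in muscle were read beside these results, and their part in them was not tested. Of 12 endothelial markers 0 passed for genotype, 4 had an unadjusted p under 0.05 (11.9% of all genes had), and all 12 differences were negative (median -0.26), as were 6263 of the 13644 over all genes. Their summed intensity was 5097 to 6913 in PWS-IC del muscle and 6224 to 9154 in wild-type muscle. Their median r with Adipoq was 0.21, with 0 of 12 above 0.9. The defining markers were well above the floor, with Pecam1 at 7.9 to 8.49 in PWS-IC del muscle and 8.51 to 8.77 in wild-type muscle. Vwf, a clotting factor of endothelium, had the smallest p (-0.53 ± 0.12, SE, adjusted p = 0.15). Of 9 macrophage markers tested 0 passed, and 5 had an unadjusted p under 0.05, against 11.9% of all genes. In 8 of them the difference was positive (median 0.42), and the median r was 0.75. The markers did not all go the same way. Adgre1 had an r of -0.02 and was at 9.34, 9.45 and 9.45 in PWS-IC del muscle, against 9.37, 9.43, 9.48 and 9.41 in wild-type muscle. The summed intensity of all 10 was 5914 to 9079 in PWS-IC del muscle and 5414 to 7036 in wild-type muscle, and Ctss, a lysosomal protease, had the smallest p (0.63 ± 0.15, SE, adjusted p = 0.181).

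Fat progenitor and fibroblast markers had a median r of 0.81 with Adipoq over 6 genes, and their summed intensity was 4882 to 13127 in PWS-IC del muscle and 5414 to 10109 in wild-type muscle. Muscle fibre markers had a median r of -0.31 over 10 genes, from -0.53 for Acta1 to 0.55 for Myh4. Neuron and glia markers had a median r of 0.18 over 6 genes. Among them Aldh1l1, a folate enzyme used as an astrocyte marker, stood apart at 0.98, while Snap25 was at 0.21.

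**Figure D4:**
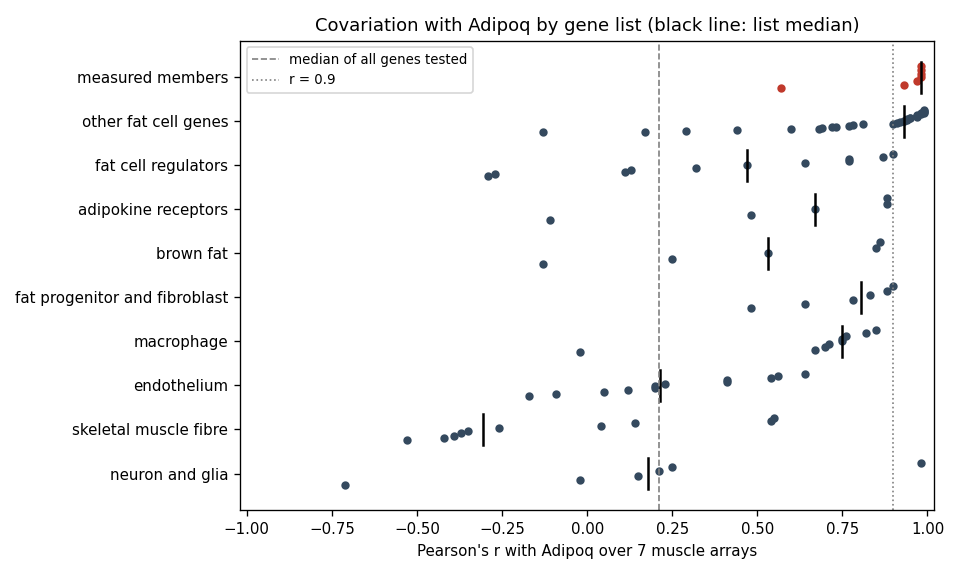
Pearson's r of single genes with Adipoq over the 7 muscle arrays, by gene list, with the list median as a black line, the median of all genes tested (0.21) dashed and r = 0.9 dotted. Measured members (red) and other fat cell genes lie mostly at or above 0.9, macrophage and fat progenitor markers mostly below 0.9 with medians of 0.75 and 0.81, and endothelial markers around the median of all genes.

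Brain gave the background for each probe set. Adipoq, Fabp4, Cidec and Pparg were too dim in brain to be tested there and entered this comparison through their muscle level. The count of genes called is therefore a description, and the size of a difference depends on the pseudocount and scaling, from 5.28 to 7.44 for Adipoq and from 5.40 to 8.27 for Fabp4 in wild-type mice over the alternative settings. In wild-type mice, muscle minus brain was 7.59 ± 0.26 for Fabp4, 6.55 ± 0.43 for Adipoq and 2.51 ± 0.53 for Cidec (SE, adjusted p = 2.51e-12, 2.81e-09 and 5.53e-04). It was 1.33 ± 0.42 for Lep, 1.13 ± 0.48 for Pparg and 1.12 ± 0.42 for Lipe (SE, adjusted p = 0.00974, 0.042 and 0.0231). These 6 of 8 genes were higher in muscle, where 22.8% of 14951 genes were. Cebpa (0.68 ± 0.48, SE, adjusted p = 0.199) and Retn (0.53 ± 0.70, adjusted p = 0.489) did not pass. The median of all genes in this comparison was -0.52, and it became 0.18 with quantile normalization and 0.15 with median centring. Under those scalings Cebpa also passed (adjusted p = 0.00598 and 0.0142), and the count was 7. Without wild-type muscle 2, Lipe and Pparg no longer passed (0.78 and 0.70) and the count was 4. Pparg also missed the threshold without wild-type brain 1, 3 or 4 (adjusted p 0.0537 to 0.0918).

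In PWS-IC del mice, muscle minus brain was 8.35 ± 0.31 for Fabp4, 7.14 ± 0.50 for Adipoq, 3.52 ± 0.62 for Cidec and 2.84 ± 0.81 for Retn (SE). It was 1.79 ± 0.55 for Pparg, 1.63 ± 0.48 for Lipe and 1.32 ± 0.55 for Cebpa, and these 7 passed with adjusted p-values between 6.17e-12 and 0.0404. The share of all genes higher in muscle was 21.1%. Lep was the gene that did not pass, at 0.53 ± 0.49 (SE, adjusted p = 0.328). Without PWS-IC del muscle 3, Lep passed at 1.14 (adjusted p = 0.0237). Without PWS-IC del muscle 2, Pparg (1.20) and Cebpa (0.69) did not. Cebpa also missed the threshold without PWS-IC del muscle 1 or any 1 of the 3 PWS-IC del brain arrays (adjusted p 0.0712 to 0.0916).

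The difference between the genotype effects in muscle and brain was tested as an interaction. Of the 8 genes 0 passed, against 0.0803% of 14951. At an unadjusted p under 0.05 there was 1, Retn. It had the largest value (2.30 ± 1.07, SE, unadjusted p = 0.0487, adjusted p = 0.756), and 6.57% of all genes had an unadjusted p under 0.05. That Retn stood above brain in PWS-IC del mice and was not called above it in wild-type mice is therefore not shown to be a difference between genotypes, and the same holds for Lep (-0.80 ± 0.65, adjusted p = 0.882).

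Within brain 4 of the 8 genes were bright enough to be tested, and 0 passed, against 0.0660% of all genes. At an unadjusted p under 0.05 there were also 0, against 8.20%. The differences between PWS-IC del and wild-type brain were 0.15 ± 0.11 for Cebpa, -0.17 ± 0.14 for Lep, -0.17 ± 0.10 for Lipe and -0.26 ± 0.14 for Retn (SE, adjusted p 0.566 to 0.632). Fabp4 was too dim in brain for the test, at 4.66 to 5.11 in PWS-IC del mice and 5.34 to 5.8 in wild-type mice. Those groups did not overlap, at intensities of 9.26 to 18.6 in PWS-IC del brain and 24.6 to 39.7 in wild-type brain. Among the genes tested in brain, which leave out Fabp4, 8.66% did not overlap between genotypes.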

How the data were processed

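The authors deposited 1 intensity value per probe set and array on a linear scale, made with PLIER and the Affymetrix Expression Console, per the submitters' processing notes. Their settings and whether arrays were normalized together are not stated in those sources. Total RNA was extracted with Trizol and labelled as biotin cRNA, per the labels' protocols. The deposited intensity values were turned into log2(intensity + 16), and 64 control probe sets were left out. Gene names came from the platform annotation, which gave 1 symbol to 34945 probe sets, several to 932, which name no gene here, and did not list 9160. The brightest 1-symbol probe set over the 14 arrays stood for its gene. Genes at or below the 0.25 quantile of mean value in a tissue were not tested.

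Genotypes were compared in each tissue alone, and tissues and the interaction in a joint fit, by limma 3.58.1 (lmFit, then eBayes; R 4.3.3) and Benjamini-Hochberg adjustment over all genes or probe sets tested. The joint fit took the 14 arrays as independent, and the titles do not say which arrays share a mouse. Covariation used exact permutation of Pearson's r and Spearman's rho, 2-sided. The number of arrays limits the precision. Named besides the members are up to 4 genes of each list with the smallest genotype p in muscle. The genes with the highest (8) and lowest (4) r with Adipoq are named too. Single genes outside this rule were chosen after their values were seen. These are Rbp4, Adig, Trarg1, Agpat2, Acvr1c, Mest, Prdm16, Adgre1, Cdh5, Snap25, Ndn and the reference markers of other tissues. The members and lists were chosen with earlier results of these data known. Alternatives covered the pseudocount, scaling, filter, probe set choice, array weights, replicate block and leaving out arrays. The fits were tested on simulated data.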

Additional observations from a re-analysis of the deposited data

Results flagged for a closer look

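Pparg in wild-type muscle had 1 array far from the rest: wild-type 2 was at 8.53, and the other 3 were at 6.65 to 6.93. The gap to the nearest array was 0.855 of the group's range, above Dixon's 95% critical value for 4 samples. In all, 24 sets of 4 wild-type arrays were examined (12 probe sets in muscle and in brain), and chance flags about 1 in 20. The same array had the highest Adipoq, Lep, Retn, Cidec, Lipe, Fabp4 and Cebpa of its group. Of all muscle arrays it also had the most Snap25, Syt1, Gad1, Slc17a7 and Mbp, but not the most Camk2a, Gfap or Aldh1l1. Whether these are related was not tested.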

How the results depend on the processing

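For genotype in muscle, 0 members passed under every alternative except array quality weights, which called 5. The count over all genes was 16, and became 29 with a pseudocount of 64, 46 with quantile normalization, 25 with median centring, 8 with no filter, 29 with a filter at the 0.5 quantile, 59 with an intensity trend, 1861 with array weights, 84 at a threshold of 0.1, 39 in a joint fit and 6 to 26 with single arrays left out. Over probe sets it was 29, and became 57 with a pseudocount of 64, 48 with a filter at the 0.25 quantile and 15 to 22 with single arrays left out. The interaction count was 12, with 6 at a pseudocount of 1 and 7 to 16 with single arrays left out. At equal Adipoq 71 genes passed, with 41 at a pseudocount of 1, 137 at 64, 21 with no filter, 38 with Agpat2 as the covariate and 15 to 52 with single arrays left out. The number of members called there was 0, with 1 (Lep) under a pseudocount of 64, median centring or Lipe as the covariate, and 0 to 1 with single arrays left out. Over probe sets the count at equal Adipoq was 33, with 18 at a pseudocount of 1 and 12 to 17 with single arrays left out. The titles do not say whether replicate numbers pair the arrays. Deviations of same-numbered PWS-IC del and wild-type arrays correlated at 0.05, 0.38 and -0.03 in muscle and at -0.05, -0.26 and -0.44 in brain. Those of same-numbered muscle and brain arrays correlated at 0.05 to 0.15 in PWS-IC del mice and at -0.03 to 0.01 in wild-type mice. So few correlations cannot decide whether the arrays are paired. With the replicate block the counts were 2 for muscle genes, 11 for muscle probe sets, 3 of 9 for brain, 6 for the interaction and 4 at equal Adipoq, and 0 members were called for genotype in these fits. The cause of these changes was not tested. Of members above r of 0.9 there were 5 to 6 with single arrays left out and 4 to 7 otherwise. Members higher in muscle than brain numbered 4 to 6 in wild-type and 5 to 8 in PWS-IC del mice with single arrays left out. In wild-type mice Pparg no longer passed with a pseudocount of 64 (0.79, adjusted p = 0.0607), nor Lipe with the mean of its probe sets (0.48, adjusted p = 0.0533). The Lep genotype difference was -1.64 to -0.35 with single arrays left out, and 0.25 (adjusted p = 0.718) with array weights. Plin1 as an anchor was not run, since no probe set of it was available here, and Cidec was used after seeing the data.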

Other observations

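Brown fat genes were also measured in muscle. Ucp1, the uncoupling protein that lets brown fat make heat, was at 8.98, 9.74 and 7.53 in PWS-IC del muscle, against 5.54, 8.19, 10.19 and 8.97 in wild-type muscle. Its highest array was wild-type 3, which was the median array for Adipoq, and its lowest was wild-type 1. Cidea, a droplet protein of brown fat, was at 9.65, 9.81 and 6.74 in PWS-IC del muscle, against 5.94, 9.32, 9.39 and 8.27 in wild-type muscle. Neither differed by genotype beyond the spread (Ucp1 0.53 ± 0.99, SE, limma adjusted p = 0.864, and Cidea 0.50 ± 0.98, adjusted p = 0.868). Of 7 listed brown fat genes 5 were bright enough to be tested, with a median r of 0.53 with Adipoq and 0 above 0.9. Prdm16 (r = 0.86) and Cidea (0.85) were the closest to Adipoq, followed by Ucp1 (0.53), Elovl3 (0.25) and Dio2 (-0.13). The difference between these values was not tested. Prdm16 was dim in muscle, at 6.3 to 6.83 in PWS-IC del and 6.29 to 7.09 in wild-type arrays. On the values as deposited, this was below every brain array (7.98 to 8.76).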
